A study of Mus musculus with 2 samples.

Results

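Open chromatin at 9 marker genes of microglia was described in mouse hippocampus, from DNase-seq peaks and footprints. The genes were Spi1, Csf1r, Cx3cr1, P2ry12, Tmem119, C1qa, C1qb, C1qc and Aif1, 9 of the 21938 protein-coding genes in GENCODE M21. They were chosen by name as a list of markers, with earlier results of these data known. The tissue carries the label layer of hippocampus and came from female B6CASTF1/J mice, an F1 cross, at 8 to 10 months of age. All material belongs to 1 group, with 2 libraries numbered as biological replicates 1 and 2, each from a pool of 2 biosamples, and no treated or control arm. Separate animals for each pool are not stated, so the SD between libraries (n = 2) may be partly technical. With 1 group no comparison between conditions and no test was made.

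Microglia are the resident macrophages of the brain. The transcription factor PU.1, encoded by Spi1, and the receptor CSF1R, which binds the ligands CSF1 and IL34, are needed for their development and survival. Mature microglia sense neurons through CX3CR1, the receptor of fractalkine, and extracellular nucleotides through P2RY12, a G-protein-coupled receptor for ADP. TMEM119 is a surface protein used to tell microglia from other brain macrophages. C1QA, C1QB and C1QC are the chains of C1q, which starts the classical complement cascade and tags synapses for removal. AIF1, also called IBA1, is an actin-binding protein and the usual stain for these cells. In DNase-seq the enzyme DNase I cuts accessible DNA, regions with many cuts are listed as peaks, and short stretches with few cuts inside them are listed as footprints, where a bound protein can shield the DNA. In bulk tissue, few cells of a type and little accessibility per cell cannot be told apart.

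Replicate 1 had 98902 peaks and 244447 footprints, and replicate 2 had 130199 peaks and 251726 footprints. The deposited peak signal has arbitrary units. It rose in steps of 0.00606 in replicate 1 and 0.00795 in replicate 2, and the median peak measured 0.5998 (99 steps) and 0.580 (73 steps). More steps mean a finer measurement if 1 step is 1 cut, which the sources used here do not state. A promoter was any base within 500 bp of an annotated transcript start of the gene, and its level was the signal of the highest peak that touched it. A distal site was a peak, merged over libraries where they overlapped, that touched no such window of any protein-coding gene. It was called shared when both libraries listed it with an overlap of at least 1 bp. Distal sites were collected over each gene record plus 20 kb on either side. All positions are on mm10.

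The promoters of the microglia markers were mostly unlisted or weak in this tissue. Cx3cr1 was the only gene of the 9 whose promoter was listed in both libraries (11.1%), compared with 12982 of all 21938 protein-coding genes (59.2%). In replicate 1 the promoters of Cx3cr1, P2ry12 and C1qc were listed, 3 of 9, where 60.4% of all genes had a peak. In replicate 2 those of Cx3cr1, Csf1r and Aif1 were listed, also 3 of 9, where 62.4% of all genes had one. Spi1, Tmem119, C1qa and C1qb, 4 of 9, had a promoter peak in neither library.

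The peaks that were listed were low beside other open promoters. At Cx3cr1 the signal was 0.394 in replicate 1 and 0.342 in replicate 2, a mean of 0.368 ± 0.037 (SD, n = 2). At P2ry12 it was 0.370 and at C1qc 0.479, both in replicate 1. At Csf1r it was 0.445 and at Aif1 0.660, both in replicate 2. Over all genes open in both libraries the median was 2.12 in replicate 1 and 2.48 in replicate 2, so every marker promoter lay below these medians. The Cx3cr1 peak was 65 steps high in replicate 1, above 24.4% of that library's peaks, and 43 steps high in replicate 2, above 19.0%. The P2ry12 peak was above 21.1% and the C1qc peak above 35.7% of replicate 1 peaks, and the Csf1r peak above 33.9% of replicate 2 peaks. The Aif1 peak was above 56.7% of replicate 2 peaks, so it alone passed the median peak of its library.

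**Figure D1:**
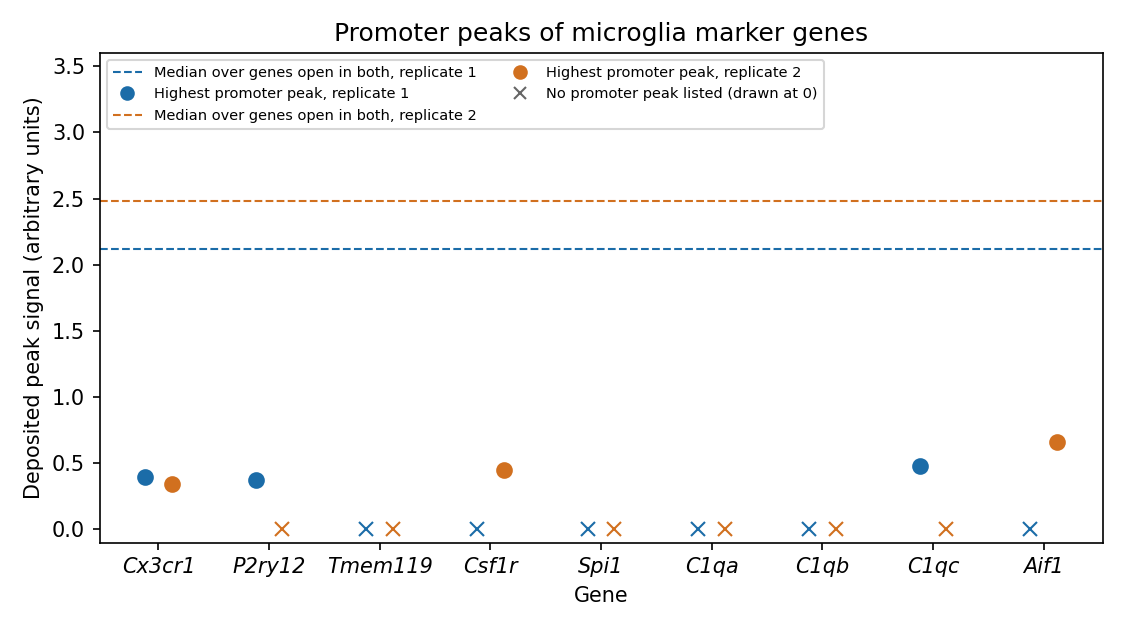
Deposited peak signal (arbitrary units, y axis) of the highest promoter peak of each marker gene (x axis) in replicate 1 (blue) and replicate 2 (orange). Crosses at 0 mark genes without a listed promoter peak, and the dashed lines are the medians over genes open in both libraries, 2.12 and 2.48. Points lie between 0.342 and 0.660, and Cx3cr1 alone has a point for both libraries.

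The deposited intervals with a false discovery rate (FDR) below 0.05 do not need a called peak. They come from the same libraries as the peaks and are no independent check. Cx3cr1 was the 1 marker with such bases in its promoter windows in both libraries, against 60.2% of all genes. They covered 160 bases in replicate 1 (lowest FDR 0.00731) and 185 bases in replicate 2 (lowest FDR 0.0171). Spi1, with no listed peak, had 13 such bases in replicate 1 (lowest FDR 0.0406) and none in replicate 2. P2ry12 had 57 and C1qc 35 in replicate 1 alone, and Csf1r had 188 and Aif1 48 in replicate 2 alone. Tmem119, C1qa and C1qb had none in either library.

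The count of open marker promoters rested on few peaks. With stricter peaks or with the record's 5′ end alone, Cx3cr1 also had none and the count was 0 of 9, against 53.3% and 53.2% of all genes. The 5′ end of the Cx3cr1 record, 120069879, is the start of a transcript of support level 5. Its listed peaks lie instead over the main start at 120068296. With a window of 2000 bp it was 3 of 9 (Cx3cr1, P2ry12 and C1qc), against 63.5% of all genes, because the sites 1880 bp downstream of P2ry12 and 1096 bp upstream of C1qc then counted as promoter.

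CpG content of the promoters was low throughout the list. The ratio of observed to expected CpG, taken at the start with the highest ratio, ran from 0.164 at C1qc to 0.443 at P2ry12, against a median of 0.627 over all protein-coding genes. Ranked over all genes in 5 equal groups, Cx3cr1, Csf1r, C1qc and Aif1 fell in the lowest and the other 5 in the next. In the lowest group 3.92% of promoters were listed in both libraries, in the next 29.6%, and in the group above it 78.3%. Cx3cr1 thus had a listed promoter in a CpG group where few genes did. The part of CpG content in the missing promoter peaks was not tested.

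More of these genes had a shared distal site in the region searched than a promoter peak in both libraries. The regions were far longer than the promoter windows, and the same order held over all genes (71.1% against 59.2%). Around 8 of the 9 markers at least 1 shared distal site was listed in the gene record plus 20 kb, Tmem119 being the exception, where 71.1% of all genes had one. Inside the record itself 4 of 9 had one (Spi1, Csf1r, Cx3cr1 and P2ry12), against 39.6% of all genes. Of the 8956 genes that, like 8 of these markers, were not open in both libraries at the promoter, 54% had a shared distal site in the record plus 20 kb. Counted once each, the regions held 43 distal sites, of which 21 were shared, 3 were in replicate 1 alone and 19 in replicate 2 alone. The higher number in replicate 2 goes with its longer peak list. The same split was not counted over all distal sites, so it is not read as particular to these regions. For 9 of the 21 shared sites the nearest protein-coding start was a marker's own, and the other 12 lay closer to a neighbouring gene.

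**Figure D2:**
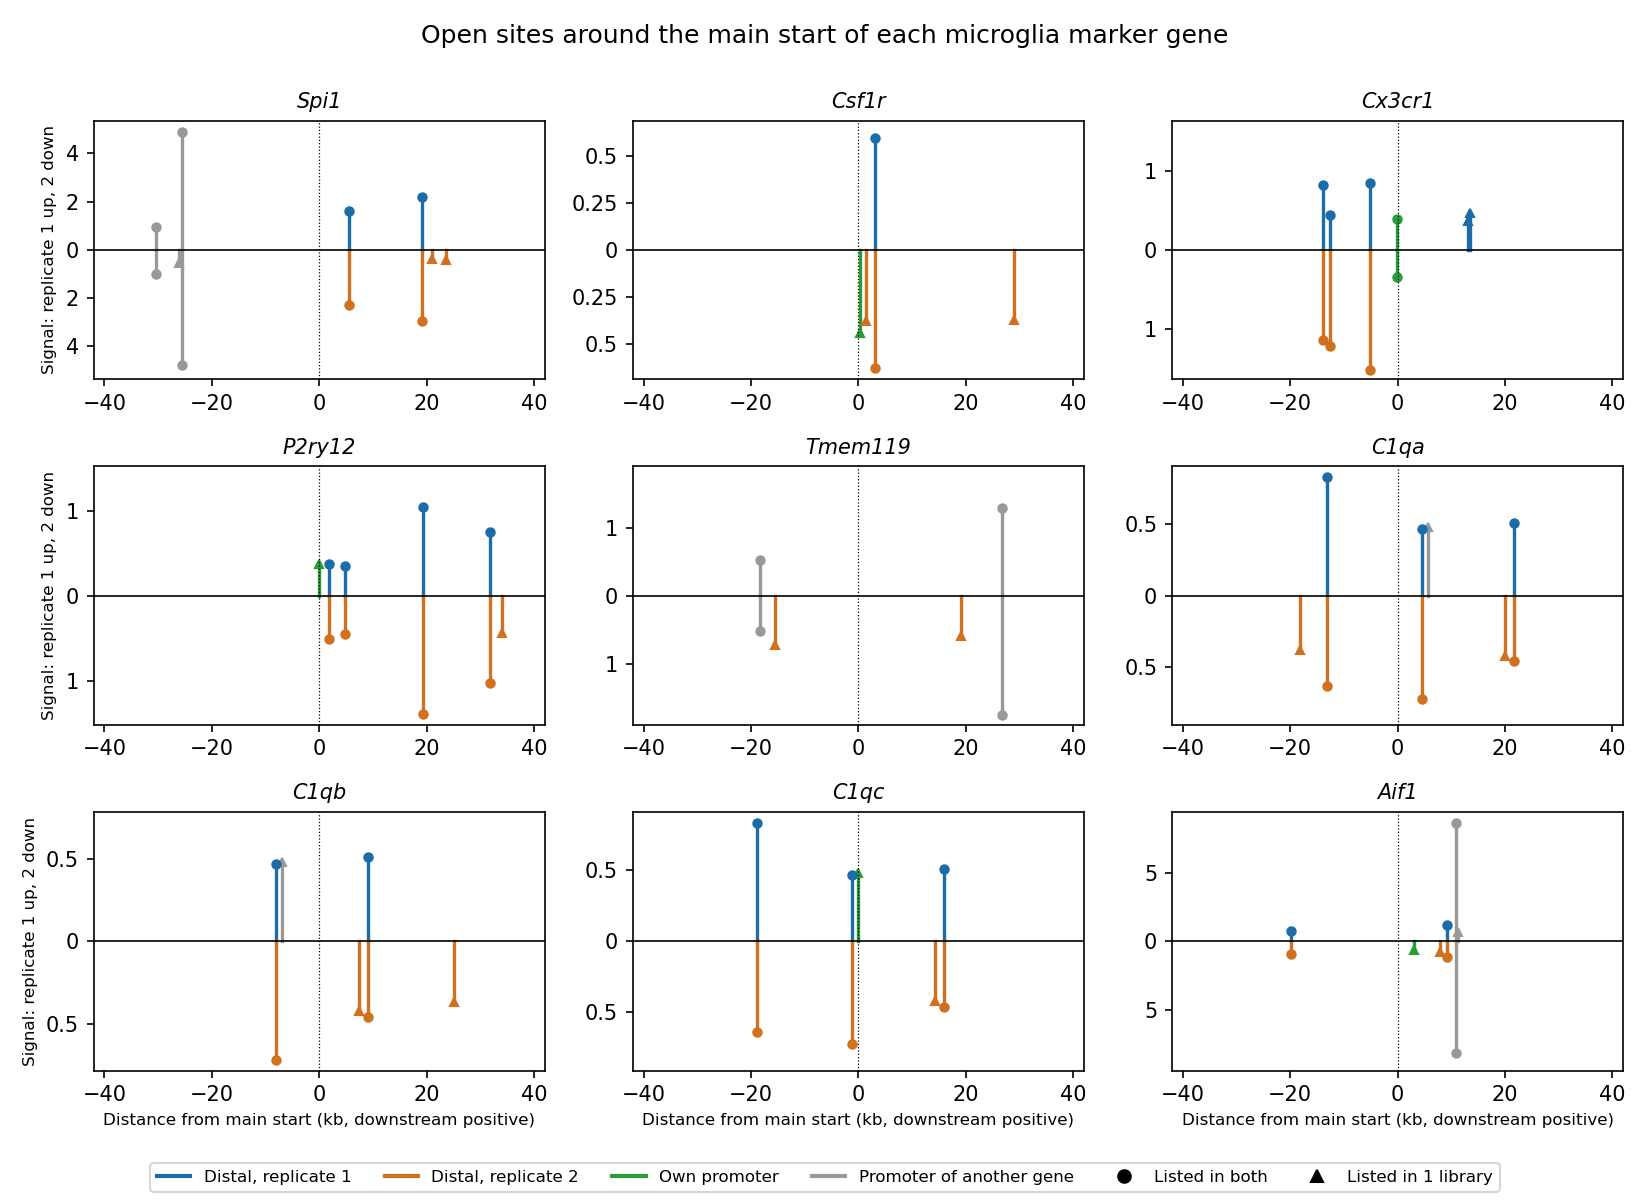
Listed sites around the main start of each marker gene (x axis, distance in kb, downstream positive, drawn up to about 40 kb), with deposited signal in replicate 1 drawn upward and in replicate 2 downward (arbitrary units, y axes differ between panels). Circles are sites listed in both libraries and triangles in 1 library, green marks the gene's own promoter and grey the promoter of another gene. The Cx3cr1 panel shows 3 shared upstream sites and a low promoter, and the Tmem119 panel no shared distal site.

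Spi1 encodes PU.1, the ETS-family transcription factor that directs myeloid development. It had the highest site nearest to any of the 9 genes although no promoter peak was listed. Its record spans chr2:91082390-91115756 on the plus strand, and its main transcript starts at 91096096. No peak of either library was listed at any of its 4 annotated starts. The site at chr2:91101481-91101680, in intron 2 and 5485 bp downstream of that start, measured 1.61 in replicate 1 and 2.28 in replicate 2. Its mean of 1.94 ± 0.48 (SD, n = 2) was above 95.1% of all 60527 shared distal sites. A second site at chr2:91115141-91115360 lay in coding exon 5, the exon that encodes the DNA-binding domain of PU.1. It measured 2.21 and 2.94, a mean of 2.57 ± 0.52, above 97.9% of shared distal sites. Both sites were high in both libraries and were also in both stricter peak lists. The exon 5 site lay 2893 bp from the start of Mybpc3, a sarcomere gene without a promoter peak in either library, closer than to any Spi1 start. Upstream, the promoters of Psmc3 (3.44 and 4.24) and Slc39a13 (4.88 and 4.76) were open, and between them and the main start of Spi1 no peak was listed.

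The reference sequences of both Spi1 sites are printed because both held footprints at the same bases in both libraries. They are given 5′ to 3′ on the strand of the gene, and here and below capitals mark bases inside footprints of both libraries. They come from the mm10 reference, while the mice were an F1 cross, and whether strain differences affected mapping was not tested.
Spi1 intron 2, chr2:91101481-91101680, plus strand: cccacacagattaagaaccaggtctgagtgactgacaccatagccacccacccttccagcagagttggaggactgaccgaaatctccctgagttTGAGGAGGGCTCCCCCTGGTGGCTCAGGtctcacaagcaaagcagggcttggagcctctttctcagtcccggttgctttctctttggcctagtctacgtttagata
Spi1 exon 5, chr2:91115141-91115360, plus strand: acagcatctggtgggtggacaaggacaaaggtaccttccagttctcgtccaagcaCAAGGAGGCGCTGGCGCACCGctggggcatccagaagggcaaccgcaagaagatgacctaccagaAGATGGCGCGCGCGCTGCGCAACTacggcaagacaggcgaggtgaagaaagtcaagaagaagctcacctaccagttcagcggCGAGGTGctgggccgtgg
In the intron 2 site 28 bases lay in footprints of both libraries, and in the exon 5 site 52 did. In the exon 5 site a footprint of each library overlapped a match to the CTCF consensus at bases 116 to 127 counted from the 5′ end, part of which lies outside the capitals. The long footprint of intron 2 covered, at bases 106 to 116, a match on the opposite strand to the same consensus without its last base, a looser form chosen after the sequences had been seen. CTCF is the insulator protein that anchors chromatin loops. A match to the MEF2 search sequence at bases 188 to 197 of the intron 2 site lay outside the footprints of either library. That search sequence fixes CTA and TAG and allows any bases between. The match alone is therefore not read as a MEF2 site.

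Csf1r, the receptor of CSF1 and IL34, had weak sites close to its start. Its record is chr18:61100598-61132149 on the plus strand, and its main transcript starts at 61105572. Replicate 2 listed a promoter peak of 0.445 at chr18:61105822-61106017, with 1 footprint and 188 bases below the FDR limit (lowest 0.00211), and replicate 1 listed none. The shared site at chr18:61108501-61108880 lay 3119 bp downstream in intron 2. It measured 0.594 and 0.628, a mean of 0.611 ± 0.024, above 41.8% of shared distal sites. The libraries were nearly equal there, and the level was close to the median of 0.686 over all shared distal sites. Intron 2 of Csf1r is known to hold the FIRE enhancer. Whether the site lies within it was not tested. The site held 1 footprint in replicate 1 and 2 in replicate 2, and none overlapped between libraries. Its central 200 bp held matches to the ETS and AP-1 consensus. Replicate 2 alone listed a further site in the same intron at 0.382. Hmgxb3, whose record overlaps the end of Csf1r on the other strand, had an open promoter (3.42 and 2.998), and Pdgfrb, the pericyte receptor gene upstream, had none.

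Cx3cr1, the fractalkine receptor gene, was accessible at its start and at a group of sites upstream. The promoter peak lay at chr9:120068265-120068360 in replicate 1 and chr9:120068283-120068478 in replicate 2, over the main start at 120068296 on the minus strand. It held 1 footprint in replicate 1 and 0 in replicate 2. Upstream, the site at chr9:120073221-120073480, at -5055 bp from the main start, measured 0.848 and 1.52, a mean of 1.18 ± 0.47, above 81.4% of shared distal sites. The site at chr9:120080661-120080904, at -12487 bp, measured 0.436 and 1.22, a mean of 0.826 ± 0.55. Its nearest coding start, 10904 bp away, was Cx3cr1's own through a transcript of support level 5, the weakest grade, that starts at 120069879. Both sites were higher than the promoter peak in each library, and both were higher in replicate 2. The site at chr9:120082081-120082300, at -13895 bp, measured 0.818 and 1.15, with the start of Ccr8, a chemokine receptor gene, as its nearest at 9923 bp. The site at -12487 bp had a log2 ratio of replicate 2 to replicate 1 of 1.48. The median ratio over shared distal sites was 0.26, with the central 95% from -0.52 to 1.14, and 0.613% of them lay as far from the median as this site. It was the site with the largest such ratio among the 21 shared distal sites of these genes.

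The 2 upstream Cx3cr1 sites nearest to its own start are printed on the minus strand, the strand of the gene, because they exceeded the promoter peak.
Cx3cr1 upstream, chr9:120073221-120073480, minus strand: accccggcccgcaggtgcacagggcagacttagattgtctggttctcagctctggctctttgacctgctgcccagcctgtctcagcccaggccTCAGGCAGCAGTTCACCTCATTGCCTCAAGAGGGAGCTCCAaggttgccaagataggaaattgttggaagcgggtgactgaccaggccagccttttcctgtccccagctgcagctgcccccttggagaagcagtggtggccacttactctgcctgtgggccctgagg
Cx3cr1 upstream, chr9:120080661-120080904, minus strand: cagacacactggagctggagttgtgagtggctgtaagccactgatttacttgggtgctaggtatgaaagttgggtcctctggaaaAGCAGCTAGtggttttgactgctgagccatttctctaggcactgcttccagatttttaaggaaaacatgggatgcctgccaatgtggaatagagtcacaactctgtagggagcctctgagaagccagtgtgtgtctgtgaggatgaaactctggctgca
The nearer site had 41 bases in footprints of both libraries, in 1 unbroken stretch, and the farther site had 9. None of the consensus sequences searched matched the central 200 bp of either, which says only that those letters are not there.

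The annotated Cx3cr1 record, chr9:119901616-120069879, is 168264 bp long because of 1 transcript of support level 5, the weakest grade. It runs over Wdr48, Gorasp1, Ttc21a, Csrnp1 and Xirp1, while the main transcript, of support level 1, spans 19614 bp. All 6 shared distal sites inside the record lay outside the main transcript and closer to starts of these neighbours. The highest, chr9:120011101-120011400, measured 4.05 and 5.07, a mean of 4.56 ± 0.72 that was above 99.6% of shared distal sites. It lay in exon 2 of the noncoding gene Gm49427, 7247 bp from the start of Xirp1, a striated muscle gene without a promoter peak here. A site beside it at chr9:120011541-120011860 measured 2.13 and 1.99. The other 4 had 0.551 and 0.636 in Wdr48, 1.40 and 1.30 in intron 1 of Csrnp1, 0.715 and 1.05 at 16310 bp from Xirp1, and 0.945 and 1.38 in intron 1 of Xirp1. These values belong to the record by annotation only. Within the main transcript, replicate 1 alone listed sites of 0.467 and 0.370 in intron 1. Wdr48 (6.10 and 5.83), the pair Gorasp1 and Ttc21a, which share a promoter peak (2.21 and 2.30), and Csrnp1 (1.26 and 1.81) had open promoters.

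P2ry12, the ADP receptor gene, had 4 shared distal sites within its long intron 1. The gene, chr3:59216272-59262871 on the minus strand, lies wholly inside Med12l, a Mediator subunit gene on the plus strand, so all 4 sites are intronic to both. The promoter peak was in replicate 1 alone, at chr3:59262801-59262857, 61 steps high with 57 bases below the FDR limit (lowest 0.0257). At chr3:59243501-59243700, 19230 bp downstream of the main start, the site measured 1.04 and 1.40, a mean of 1.22 ± 0.25, above 82.7% of shared distal sites. At chr3:59231001-59231240, 31710 bp downstream, it measured 0.745 and 1.03, a mean of 0.886 ± 0.20. These 2 sites were in both stricter peak lists, and replicate 2 was the higher library at each. Nearer the start, the site at chr3:59260775-59261126 measured 0.376 and 0.517 and that at chr3:59257953-59258180 measured 0.351 and 0.453, above 21.1% and 15.6% of shared distal sites. At the latter the replicate 1 peak, chr3:59258160-59258180, met only the edge of the replicate 2 peak and missed a reciprocal overlap of 0.5. The nearest coding start was P2ry12's own for the sites 1880 bp and 31710 bp downstream, the latter through a short transcript, and a start of Med12l for the others. Med12l had an open promoter of its own (1.66 and 1.65). P2ry13, the neighbouring nucleotide receptor gene, had no promoter peak.

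The sequences of the 2 higher P2ry12 sites are printed on the minus strand.
P2ry12 intron 1, chr3:59243501-59243700, minus strand: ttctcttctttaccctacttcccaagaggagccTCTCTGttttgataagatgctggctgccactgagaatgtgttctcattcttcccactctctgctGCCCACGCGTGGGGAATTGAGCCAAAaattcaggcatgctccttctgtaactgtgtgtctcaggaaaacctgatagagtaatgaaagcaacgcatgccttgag
P2ry12 intron 1, chr3:59231001-59231240, minus strand: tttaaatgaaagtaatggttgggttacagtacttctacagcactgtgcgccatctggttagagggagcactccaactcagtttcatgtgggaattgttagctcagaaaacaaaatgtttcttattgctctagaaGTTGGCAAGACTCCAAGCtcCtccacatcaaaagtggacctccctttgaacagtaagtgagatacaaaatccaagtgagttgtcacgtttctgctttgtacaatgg
In the former 32 bases lay in footprints of both libraries, and in the latter 19. An ETS consensus, the class that PU.1 binds, stood at bases 17 to 22 of the former on the opposite strand, outside the footprints of either library.

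Tmem119, at chr5:113793729-113800516 on the minus strand, was the gene with the least signal. It had no promoter peak, no base below the FDR limit in its promoter windows and no shared distal site. Replicate 2 alone listed sites of 0.588 and 0.724 in its flanks, whose nearest coding starts were those of Iscu and Selplg. Iscu, an iron-sulfur cluster scaffold gene, had an open promoter (2.14 and 2.505). Selplg, which encodes the selectin ligand PSGL-1 and is itself used as a microglia marker, had a low promoter peak that was nearly equal in both libraries (0.527 and 0.525).

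The C1q genes lie side by side on the minus strand, C1qb at chr4:136880129-136886187, C1qc at chr4:136889804-136893065 and C1qa at chr4:136895917-136898803, and their regions share sites. No shared distal site lay inside any of the 3 genes, and 3 lay between or beside them. The site 1096 bp upstream of C1qc measured 0.467 and 0.724, a mean of 0.595 ± 0.18, and its peaks missed a reciprocal overlap of 0.5 between libraries. The site 13188 bp upstream of C1qa measured 0.830 and 0.636, a mean of 0.733 ± 0.14, and was the only one of the 3 in both stricter peak lists. The site 8997 bp downstream of the C1qb start measured 0.509 and 0.461, a mean of 0.485 ± 0.034. These levels were modest, above 39.9%, 54.6% and 26.3% of shared distal sites, and the order of the libraries was not the same at all 3. The C1qc promoter peak of replicate 1, at chr4:136893014-136893090, was 79 steps high with 35 bases in the windows below the FDR limit (lowest 0.0306).

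The 3 C1q sites are printed on the minus strand because they are the shared open chromatin of the locus.
C1qa upstream, chr4:136911881-136912100, minus strand: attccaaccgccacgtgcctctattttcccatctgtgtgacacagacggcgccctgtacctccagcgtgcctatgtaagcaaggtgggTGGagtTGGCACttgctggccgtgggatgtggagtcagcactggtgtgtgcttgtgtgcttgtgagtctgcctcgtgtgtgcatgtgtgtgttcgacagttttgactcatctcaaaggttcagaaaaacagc
C1qc upstream, chr4:136894061-136894260, minus strand: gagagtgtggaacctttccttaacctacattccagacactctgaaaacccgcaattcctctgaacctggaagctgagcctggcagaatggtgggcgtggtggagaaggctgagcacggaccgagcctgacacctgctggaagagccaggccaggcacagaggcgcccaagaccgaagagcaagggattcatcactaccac
C1qb downstream, chr4:136877121-136877258, minus strand: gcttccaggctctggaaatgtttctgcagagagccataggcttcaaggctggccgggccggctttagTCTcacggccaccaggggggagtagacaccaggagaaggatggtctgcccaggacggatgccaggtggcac
Bases in footprints of both libraries numbered 9 at the C1qa site, 0 at the C1qc site, where replicate 2 had no footprint, and 3 at the C1qb site. The C1qa site held an AP-1 consensus at bases 191 to 197, outside the footprints. The C1qb site held the CTCF consensus without its last base at bases 76 to 86, overlapping a footprint of replicate 1 alone, and at bases 96 to 106, overlapping none.

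Aif1, at chr17:35170991-35176068 on the minus strand, had a single promoter peak, in 1 library. Replicate 2 listed 0.660 (83 steps) at chr17:35173001-35173023, a peak only 23 bp wide and without a footprint, near an internal start at 35172819 and not at the start of the main transcript at 35176001. Replicate 1 listed no peak there. Both shared sites of the region lay nearer to neighbours in this gene-dense stretch of the major histocompatibility complex. The site at chr17:35166741-35166980, in exon 2 of the noncoding gene Gm17705, measured 1.19 and 1.11 and lay 1964 bp from a start of Prrc2a. The site at chr17:35195724-35195940, in coding exon 3 of the lymphotoxin gene Ltb, measured 0.727 and 0.938. Prrc2a, a widely expressed RNA-binding protein gene, had one of the stronger promoters named here (8.60 and 8.17), while Lst1 and Ltb had none.

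**Figure D3:**
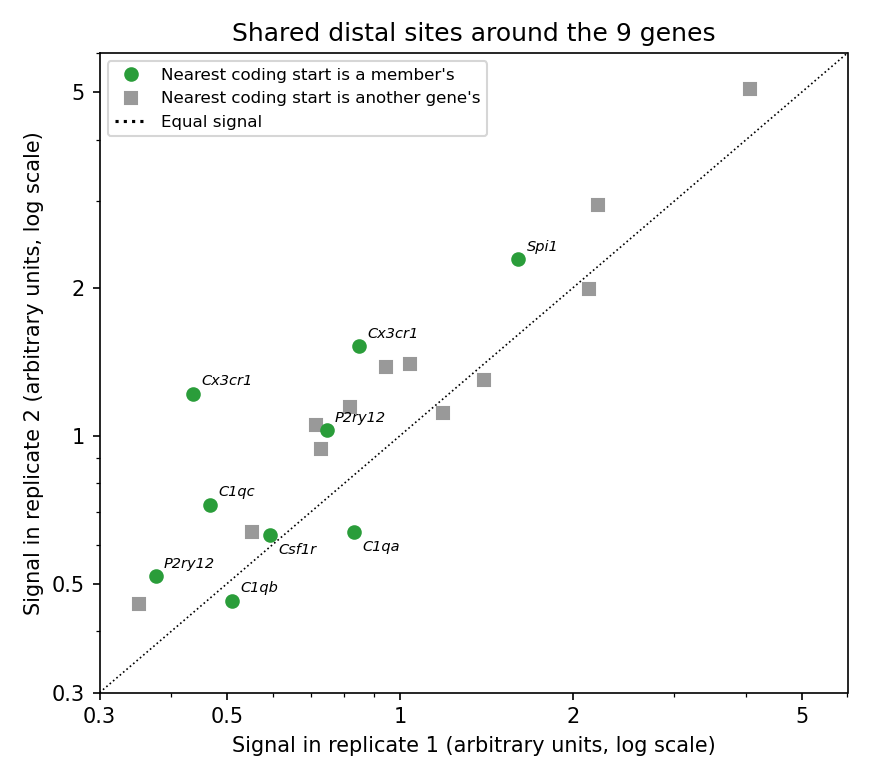
Deposited signal of the 21 shared distal sites in replicate 1 (x axis) and replicate 2 (y axis), arbitrary units on log scales. Green circles are the 9 sites whose nearest coding start is that of the labelled marker gene, grey squares the others, and the dotted line marks equal signal. Of the 9 marker sites 7 lie above the line, the farthest being the Cx3cr1 site at 0.436 and 1.22. Most shared distal sites of the genome would also lie above it, with a median log2 ratio of replicate 2 to replicate 1 of 0.26.

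Over all shared distal sites the median log2 ratio of replicate 2 to replicate 1 was 0.26, so most were higher in replicate 2. Across the 9 sites nearest to a marker's own start, 7 were higher in replicate 2, and 5 had a mean above the median of 0.686 over all shared distal sites. Their levels ran in the order Spi1, the Cx3cr1 site at -5055 bp, P2ry12, the Cx3cr1 site at -12487 bp, C1qa, Csf1r, C1qc, C1qb and the P2ry12 site by its start. Spi1 stood above the next site by more than the SD of either, and each later pair of neighbours in that order differed by less than the larger of their SDs. The number of shared distal sites per 100 kb was 6.995 for C1qa, 6.93 for C1qc, 4.62 for P2ry12, 4.44 for Aif1, 4.34 for C1qb, 4.32 for Cx3cr1, 2.73 for Spi1, 1.40 for Csf1r and 0 for Tmem119. The median over all protein-coding genes was 2.18. These figures count neighbours' sites too, and the 3 C1q genes share theirs.

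Footprints were present at nearly all of these sites. Of the 21 shared sites 20 had a footprint in both libraries, the exception being the one upstream of C1qc, and of all shared distal sites 77.8% did. Each library had 52 footprints in the 21 sites, and 30 of those in replicate 1 overlapped a footprint of replicate 2. By a reciprocal overlap of 0.5 the number was 24. The same overlap was not counted over all shared distal sites, so these numbers are not read as high or low.

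Consensus matches were counted in the central 200 bp of the sites on both strands. GGAAGT, an ETS sequence that PU.1 binds, was found in 4 of the 21 shared sites, 3 of them nearest to a marker's start (P2ry12, Csf1r and C1qb), against 12.5% of all shared distal sites. At C1qb the listed site is 138 bp wide and the match lay in the 200 bp window outside it. Within whole listed sites the sequence was found in 3 of 21, 2 of them nearest to a marker's start, against 15.8% of all shared distal sites. TGANTCA (AP-1) was found in 3, against 12.1%. The C/EBP sequence, TTGC and AA with any 2 bases between, was found in 2, against 10.5%, and neither was nearest to a marker. The MEF2 sequence, CTA and TAG with any 4 bases between, was found in 2, against 3.04%, and the CTCF consensus in 2, against 10.6%. TGTGGT (RUNX) and the IRF sequence, GAAA repeated after any 2 bases, were found in 0, against 13.5% and 2.17%. These counts are descriptions of few sites, and no test of a difference from other sites was made. In the RefSeq promoter table for GRCm38.p6, which held 5 of the 9 genes, GGAAGT was found for P2ry12, C1qb and C1qc, against 23.8% of 32851 promoters. TGTGGT was found for Cx3cr1 and C1qc (16.8% of promoters), the MEF2 sequence for Cx3cr1 (3.69%), the C/EBP sequence for P2ry12 (10.8%) and the IRF sequence for Aif1 (3.44%). The AP-1 (7.81%) and CTCF (2.43%) sequences were found for none of the 5.

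A wider list of 28 genes expressed in microglia showed more open promoters, with 12 of 28 listed in both libraries (42.9%, against 59.2% of all genes). Those with high mean signal included, in order, Tgfbr1 (3.81 and 4.42), Cebpa (2.46 and 2.79), Bin1 (2.15 and 2.68), Olfml3 (1.53 and 2.32), Fcgr3 (1.44 and 1.41), Inpp5d (1.35 and 1.18), Cd68 (1.41 and 0.843) and Irf8 (0.709 and 1.21). All of these were above Cx3cr1. Tgfbr1 and Bin1 are also expressed by other brain cells. The median CpG ratio was 0.357 over this list and 0.266 over the 9 markers, and 13 of the 28 had a promoter peak in neither library. Of the ligands that act on microglia, Cx3cl1, the neuronal partner of Cx3cr1, had an open promoter (1.99 and 2.39), as had Csf1 (1.28 and 1.22), while Il34 and Tgfb1 had no peak in either library.

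**Figure D4:**
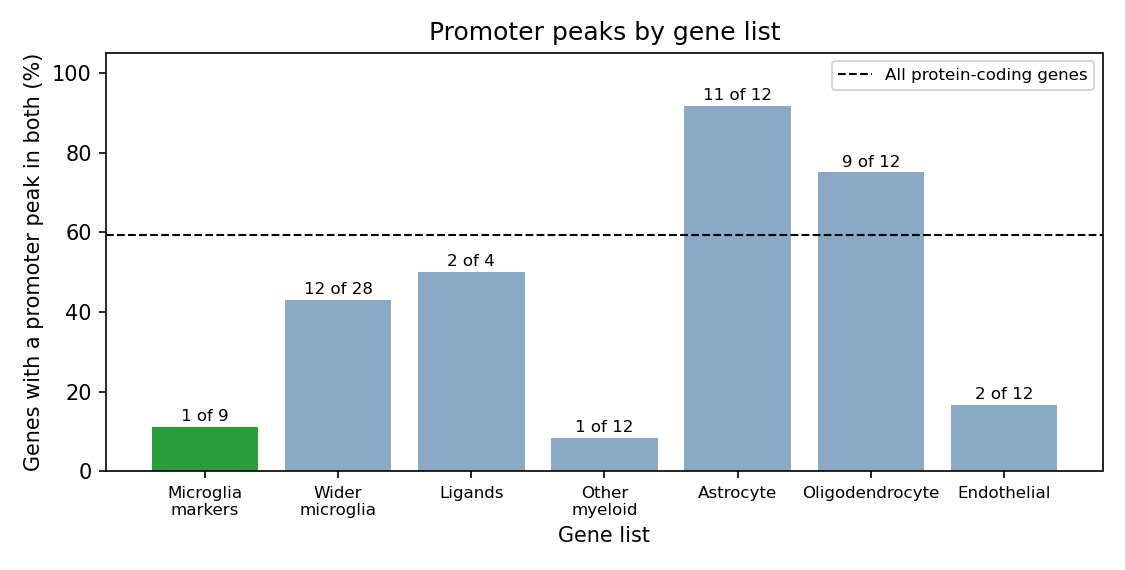
Share of genes with a promoter peak in both libraries (%, y axis) for the 9 microglia markers (green) and 6 comparison lists (blue), with the number of genes above each bar. The dashed line is the share over all protein-coding genes, 59.2%. The microglia, other myeloid and endothelial bars lie far below the line and the astrocyte and oligodendrocyte bars above it.

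Markers of other cell types in the tissue were set beside them, in lists also chosen with earlier results of these data known. Of 12 astrocyte genes 11 were open at the promoter in both (91.7%), from 0.420 for Gjb6 to 3.83 for Glul by mean signal, a peak that also touches a start of Teddm2, and Aqp4, the water channel gene, had none. Of 12 oligodendrocyte genes 9 had one (75%), from 0.613 for Opalin to 2.31 for Mbp. Of 12 endothelial genes 2 had one (16.7%), Kdr (0.333 and 0.382) and Abcb1a (0.254 and 0.199), both with a mean below that of Cx3cr1. Of 12 genes of other myeloid cells, such as border macrophages, monocytes and neutrophils, 1 had one (8.33%), the class II antigen presentation gene H2-Aa (1.30 and 2.03). The median CpG ratio was 0.624 in the astrocyte list, 0.463 in the oligodendrocyte list, 0.332 in the endothelial list and 0.239 in the other myeloid list. The lists with few open promoters thus had lower CpG ratios, and the part of CpG content or of cell number in the shares was not tested.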

How the data were processed

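DNase-seq was deposited for 2 libraries of 1 group. Per the deposited notes, peaks, footprints and false discovery rates were made from each library's own mm10 alignments, not pooled libraries. The aligner and callers were not given in the sources used here. The authors' peak height is a signal, in whole multiples of a step (100% of peaks within 0.05 of a step), whose constant is not given. The authors' false discovery rates are p-value type values listed below 0.05, and every deposited footprint has a p-value type threshold of 0.01. The larger peak list was used.

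Members and lists were chosen with earlier results of these data known. Genes came from GENCODE M21. Overlaps, CpG ratios and consensus matches were computed with Python 3.11.15, numpy 2.4.6, pandas 2.3.3 and pysam 0.24.0, with functions tested on made-up peaks, and figures with matplotlib 3.10.9. No statistical test was run, since 1 group gives no comparison. Unmapped per-sample columns numbered 0. Named were all 9 members, shared distal sites inside each record and the 3 highest in its flanks, their neighbours, and up to 10 genes per list by signal, of which a few are left out here. Alternatives were stricter peaks, other windows, flanks and overlaps, rescaled signal, whole peaks for motifs, and each library left out.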

Additional observations from a re-analysis of the deposited data

How the results depend on the processing

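Among 56 recalculations of 18 values, 39 left the value about where it was (counts within 1.5 times), 17 moved it and 0 reversed it. Markers with a promoter peak in both libraries, 1 of 9, became 0 with stricter peaks, 3 with a 2000 bp window and 0 with the record's 5′ end alone, and numbered 3 to 3 with each library left out. With the 2000 bp window the other myeloid list had 2 genes (Cd163 and H2-Aa), and with stricter peaks the endothelial list had 0. The Cx3cr1 promoter signal was 0.490 once divided by each library's median over shared peaks, another unit, and had no value with stricter peaks. It was 0.342 to 0.394 with each library left out. Shared distal sites, 21, became 10 with stricter peaks, 18 with a reciprocal overlap of 0.5, 13 without flanks and 38 with 50 kb flanks. When a single library was used 24 to 40 sites were listed, 40 of them in replicate 2. Sites nearest a marker's start, 9, became 4 with stricter peaks, 8 with a reciprocal overlap of 0.5, 4 without flanks, and 11 to 14 with a single library. RUNX matches rose from 0 to 2 in whole merged peaks, against 17% of all shared distal sites. Chosen after seeing the data, the CTCF consensus without its last base gave 4 matches in place of 2, against 16.1% of shared distal sites. Also chosen then, the span of the support level 1 transcript plus 20 kb gave 15 shared distal sites, 9 of them nearest a marker. That run changed the regions alone, and nearest starts were still taken over transcripts of every support level. The Cx3cr1 site at -12487 bp counted as nearest a marker through a start of support level 5. No paired analysis was possible because the libraries form 1 group. Signals near the lowest listed peaks rest on few steps. An unlisted promoter had no listed peak in these libraries and was not shown to be closed. The part of sequencing depth was not tested.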
